A study of Mus musculus with 4 samples.

Results

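The blood-brain barrier transporters described here are 10 membrane carriers and pumps: Slco1c1, Slco1a4, Slc22a8, Abcb1a, Abcg2, Mfsd2a, Slc7a5, Slc7a1, Slc16a1 and Slc38a3. They were taken by gene name from the deposited gene tables, where all 10 were found among 23337 names. The set was selected on TPM in YFP+ and YFP- cells, with the values of these same libraries known, so the YFP comparison of the 10 genes is a description and carries no test. RNA had been sequenced from macrophages sorted from livers of male and female mice, 6 to 8 weeks old, as 4 libraries. All mice carried Lyz2cre, which expresses Cre recombinase from the lysozyme gene active in myeloid cells, and RosaYFP, a yellow fluorescent protein reporter that Cre switches on. The groups were 2 libraries of YFP+ cells and 2 of YFP- cells. Within both groups the title of 1 library starts with M and that of the other with FM, and the labels give no meaning for these starts. The sources used here do not say whether the libraries came from separate or pooled animals, so the spread between them may be technical.

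Endothelial cells of brain capillaries are sealed by tight junctions, so nutrients and hormones enter the brain through carriers and many drugs are pumped back into the blood. The 10 genes cover the main routes: thyroxine and organic anions, drug efflux, lipids, amino acids, and lactate and ketone bodies. None is found in that endothelium alone. Hepatocytes also make Slco1a4, Abcg2, Slc38a3, Abcb1a and Slc16a1, and the choroid plexus, which secretes cerebrospinal fluid, also makes Slc22a8.

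The libraries did not all match their label. Levels are given in TPM, a measure scaled for gene length and to the same sum of 1000000 in each library. Summed over 10 Kupffer cell genes (markers of the resident liver macrophage), levels were 40943 TPM in YFP+ M and 36193 in YFP+ FM, against 6745 in YFP- M and 13054 in YFP- FM. Summed over 11 genes of microglia, the macrophages of the brain, they were 1277 and 122 TPM in the YFP+ libraries against 21764 and 19486 in the libraries labelled YFP-. Both YFP- libraries, labelled as liver macrophages, thus held more microglia than Kupffer cell marker RNA. The YFP+ FM library stood apart in another way: 7386 genes reached 1 TPM there, compared with 10302 to 12829 in the other libraries. A typical gene was lower in YFP+ libraries, with a median log2 difference of -1.73 over the 12251 genes tested, and this median was -0.03 after quantile normalization, -0.11 after median-ratio scaling and -0.01 after cyclic loess. By limma 64 genes were called higher and 4834 lower in YFP+ on the deposited values, compared with 148 and 205 after quantile normalization, 759 and 790 after median-ratio scaling, and 65 and 40 after loess.

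Slco1c1 and Slco1a4 encode organic anion carriers of 1 family and lie close together on chromosome 6. Their promoters are shown because they hold a stretch in common. The lines give the 250 bases before the RefSeq gene start, 5′ to 3′ on the strand of the gene, in GRCm38.p6, at chr6:141524104-141524353 on the plus strand for Slco1c1 and chr6:141856221-141856470 on the minus strand for Slco1a4, with capitals marking the shared run.
Slco1c1: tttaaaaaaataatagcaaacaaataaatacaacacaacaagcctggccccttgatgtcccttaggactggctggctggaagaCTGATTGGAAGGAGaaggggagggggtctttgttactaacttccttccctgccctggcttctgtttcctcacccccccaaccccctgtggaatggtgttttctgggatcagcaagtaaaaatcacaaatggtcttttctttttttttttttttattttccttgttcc
Slco1a4: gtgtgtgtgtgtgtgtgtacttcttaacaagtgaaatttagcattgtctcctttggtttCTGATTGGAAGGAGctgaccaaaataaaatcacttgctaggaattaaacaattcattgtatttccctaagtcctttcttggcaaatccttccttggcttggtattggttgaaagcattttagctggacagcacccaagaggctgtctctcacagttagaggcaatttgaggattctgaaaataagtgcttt
The run CTGATTGGAAGGAG is 14 bases long, begins 167 bases before the RefSeq start of Slco1c1 and 191 bases before that of Slco1a4, and lies on the same strand in both. The 28 pairs of windows from 8 transporters had a median longest shared run of 9 bases. Slc7a1 and Slco1c1 also shared 14 bases, on opposite strands and all A but for the last base. The run shared by Slco1c1 and Slco1a4 was picked from their windows, so finding it in both was fixed. The RefSeq table held 32851 promoter windows of 250 bases, from 27025 genes. How many of these hold other 14-base runs was not tested. Searched on both strands, the run of Slco1c1 and Slco1a4 was in 2 windows, their own. It contains ATTGG, the reverse of the CCAAT box, and overlapping it GGAA, the core of ETS factor sites. RefSeq windows were matched for 8 of the 10 transporters, by taking the window nearest to the gene start in the deposited tables, which for Abcb1a lay 93001 bases and for Slc22a8 1928 bases from that start. On either strand CCAAT was in 3 of these 8, against 33.8% of all windows, and GGAA in 8 of 8, against 93.4%. CTTTG, the core letters of TCF and LEF sites, was in 6 of 8, among them the distant Abcb1a window, against 48.6% of all windows. Also searched were TATAAA, in 0 of 8 against 12.4%, CACGTG, in 1 of 8 against 6.02%, and CCGCCC, in 3 of 8 against 32.7%. Such matches describe letters in a window and show no binding.

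All 10 transporters were low in both YFP+ libraries and higher in both YFP- libraries, without overlap between the groups. Over the 10 genes, levels ran from 1.58 to 12.2 TPM in YFP+ M and from 0.0502 to 1.66 TPM in YFP+ FM, against 18.1 to 285.0 TPM in YFP- M and 20.4 to 168.9 TPM in YFP- FM. Of all tested genes 79.7% likewise had both YFP+ libraries below both YFP- libraries, and 2.5% had both above. In the model over all genes 10 of 10 transporters were past the threshold as lower, where 39.5% of all tested genes were, and nothing is read from this since the genes were chosen with this contrast known. Each of them reached 1 TPM in both YFP- libraries and in YFP+ M, and Slc7a5 and Slc38a3 also did in YFP+ FM. In libraries of many cells, fewer cells of a type and less RNA per cell cannot be told apart.

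**Figure D1:**
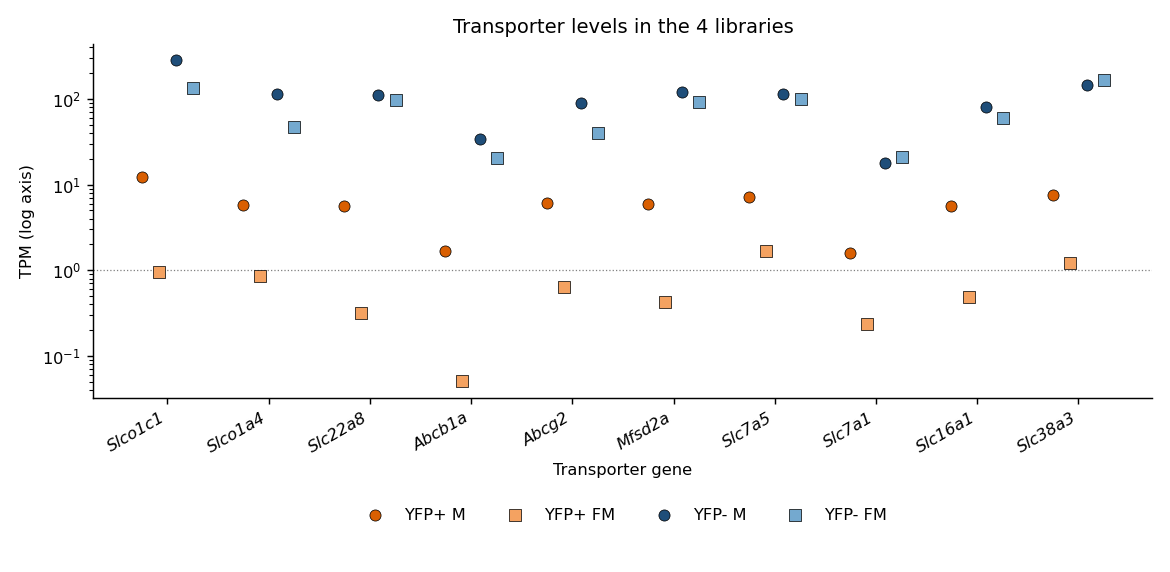
TPM (log axis) of the 10 transporters in the 2 YFP+ libraries (orange) and the 2 YFP- libraries (blue), with circles for M and squares for FM titles and a dotted line at 1 TPM. For every gene both orange points lie below both blue points, and 8 of the 10 YFP+ FM values lie below the dotted line.

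Gene positions are those of the deposited tables, in GRCm38. Among the organic anion carriers, Slco1c1 (chromosome 6, 141524386 to 141570177, plus strand), which carries thyroxine across the barrier, had 12.2 TPM in YFP+ M and 0.950 in YFP+ FM, against 285.0 in YFP- M and 134.5 in YFP- FM. The groups did not overlap, and the YFP- M library was the highest of the 4. Differences in log2(TPM + 1) are smaller than the fold change itself where levels are low. On that scale its YFP+ minus YFP- difference was -5.28, the lowest of the 10. Slco1a4 (chromosome 6, 141805440 to 141856171, minus strand), a carrier of bile acids, steroid conjugates and drugs, had 5.73 TPM in YFP+ M and 0.866 in YFP+ FM, against 113.4 in YFP- M and 46.7 in YFP- FM, a log2 difference of -4.38. Its close relatives Slco1a1, Slco1a5 and Slco1a6 were listed at 0 in both YFP+ libraries and reached at most 0.322 TPM in a YFP- library, although how reads of this family were split is uncertain. Slco1b2, the liver-specific member that hepatocytes use to take up bile acids, had 0.0561 TPM in YFP+ M and was listed at 0 in YFP+ FM, against 0.457 in YFP- M and 1.52 in YFP- FM. Slc22a8 (chromosome 19, 8591254 to 8611835, plus strand), the organic anion transporter OAT3, had 5.56 TPM in YFP+ M and 0.320 in YFP+ FM, against 111.6 in YFP- M and 96.8 in YFP- FM. Its YFP- libraries lay close together and its YFP+ libraries far apart, and its log2 difference was -5.16.

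The ATP-driven efflux pumps were also lower in both YFP+ libraries than in both YFP- libraries. Abcb1a (chromosome 5, 8660092 to 8748570, plus strand) encodes P-glycoprotein, which returns many lipophilic drugs to the blood, and had 1.68 TPM in YFP+ M and 0.0502 in YFP+ FM, against 33.9 in YFP- M and 20.4 in YFP- FM. Its YFP+ FM value was the smallest of the 10 genes in any library and rested on a mean read coverage of 0.106. Its log2 difference was -4.03. The near copy Abcb1b, the second rodent P-glycoprotein gene, had 0.635 and 0.0328 TPM in the YFP+ libraries against 8.49 and 10.3 TPM in the YFP- libraries, and how reads of the pair were split is uncertain. In GENCODE M21 an opposite-strand gene, Gm42686, shares 553 exon bases with Abcb1a, and the sources used here do not give strand use in counting. Abcg2 (chromosome 6, 58596672 to 58692451, plus strand), the breast cancer resistance protein, had 6.07 TPM in YFP+ M and 0.636 in YFP+ FM, against 89.2 in YFP- M and 39.99 in YFP- FM. Its log2 difference was -4.16, and among YFP- libraries M was the higher.

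Mfsd2a (chromosome 4, 122946851 to 122961188, minus strand) moves lysophosphatidylcholine with docosahexaenoic acid into the brain and keeps vesicle traffic through the endothelium low. It had 5.89 TPM in YFP+ M and 0.427 in YFP+ FM, against 121.2 in YFP- M and 93.4 in YFP- FM, a log2 difference of -5.10. Slc16a1 (chromosome 3, 104638668 to 104658462, plus strand), the monocarboxylate carrier MCT1 for lactate and ketone bodies, had 5.67 TPM in YFP+ M and 0.492 in YFP+ FM, against 80.7 in YFP- M and 60.2 in YFP- FM. Its log2 difference was -4.49. Both genes were lowest in YFP+ FM and highest in YFP- M.

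Of the amino acid carriers, Slc7a5 (chromosome 8, 121881146 to 121907686, minus strand), the light chain of the large neutral amino acid exchanger LAT1, had 7.20 TPM in YFP+ M and 1.66 in YFP+ FM, against 114.0 in YFP- M and 99.2 in YFP- FM. It had the highest YFP+ FM value of the 10 and a log2 difference of -4.52. Slc7a1 (chromosome 5, 148327410 to 148399904, minus strand), which imports arginine and lysine, had 1.58 TPM in YFP+ M and 0.236 in YFP+ FM, against 18.1 in YFP- M and 21.1 in YFP- FM, a log2 difference of -3.52. Slc38a3 (chromosome 9, 107651155 to 107668968, minus strand), a glutamine carrier, had 7.49 TPM in YFP+ M and 1.21 in YFP+ FM, against 145.5 in YFP- M and 168.9 in YFP- FM. Its log2 difference was -5.19. Slc7a1 and Slc38a3 were the transporters with a higher level in YFP- FM than in YFP- M.

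In YFP- libraries the order of mean levels was led by Slco1c1 at 209.7 ± 106.4 TPM and Slc38a3 at 157.2 ± 16.5 TPM (SD, n = 2 here and below), which do not differ beyond the spread of Slco1c1. Slc38a3 was above the next gene by more than the SD of either. Mfsd2a at 107.3 ± 19.6, Slc7a5 at 106.6 ± 10.4 and Slc22a8 at 104.2 ± 10.5 TPM lay together. Slco1a4 at 80.1 ± 47.2, Slc16a1 at 70.5 ± 14.5 and Abcg2 at 64.6 ± 34.8 TPM also overlapped. Abcb1a at 27.1 ± 9.58 and Slc7a1 at 19.6 ± 2.15 TPM were lowest and within 1 SD of Abcb1a of each other. In YFP+ libraries the SD was about as large as the mean or larger for every gene, for example 6.57 ± 7.95 TPM for Slco1c1 and 0.910 ± 0.953 for Slc7a1, because the M library was far above the FM library.

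Slco1c1 took the largest share of the set in YFP+ M and YFP- M, Slc38a3 in YFP- FM and Slc7a5 in YFP+ FM. Slco1c1 made up 20.6% of the summed transporter TPM in YFP+ M, 13.9% in YFP+ FM, 25.6% in YFP- M and 17.2% in YFP- FM, where Slc38a3 made up 21.6%. Slc7a5 made up 24.2% in YFP+ FM. The sums were 59.1 TPM in YFP+ M and 6.85 TPM in YFP+ FM, against 1112 TPM in YFP- M and 781.1 TPM in YFP- FM. Within the M libraries the YFP+ level was 4.28% to 8.77% of the YFP- level for every transporter, with Slco1c1 lowest and Slc7a1 highest. Within the FM libraries it was 0.247% to 1.85%, with Abcb1a lowest and Slco1a4 highest. Genes with at least 1 TPM in the YFP- library had a median of 42.4% in M (12133 genes) and 8.24% in FM (12178 genes). The transporters lay between the 1.99 and 6.78 percentiles of these genes in M and between the 7.90 and 15.4 percentiles in FM. These places are a description only, since the transporters were chosen with these values known.

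**Figure D2:**
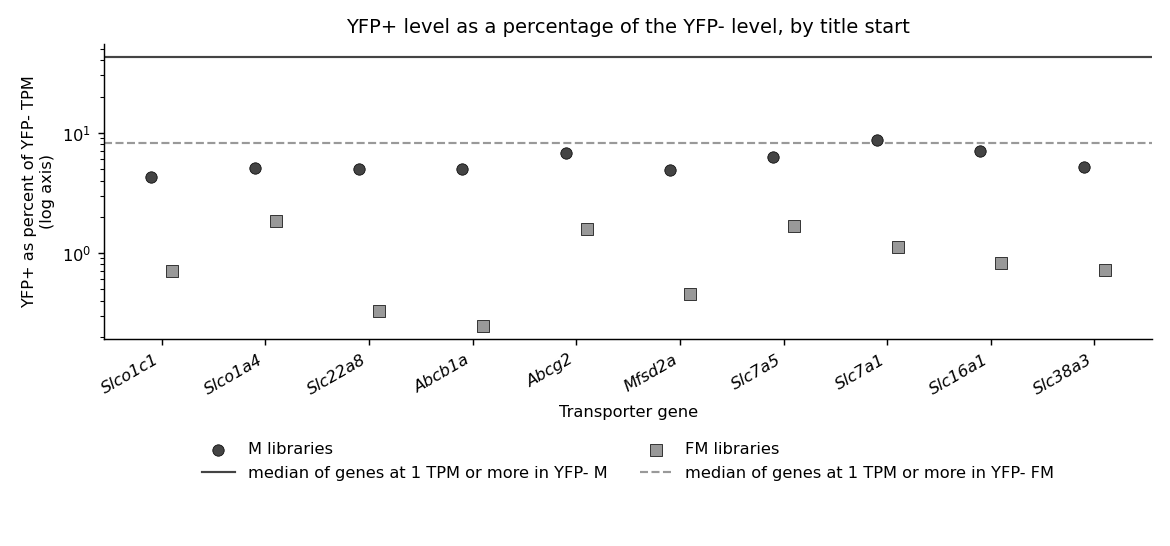
YFP+ TPM as a percentage of YFP- TPM (log axis) for each transporter, within M libraries (circles) and within FM libraries (squares). Horizontal lines give the median of genes with at least 1 TPM in that YFP- library, 42.4% in M and 8.24% in FM, and all points lie below the line of their own title start.

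Libraries with M titles were compared with FM libraries, a contrast that had no part in choosing the genes, with YFP group as a covariate. On the log2(TPM + 1) scale the M minus FM difference ran from 0.43 for Slc7a1 to 1.92 for Slco1c1, with SE from 1.39 to 1.55. None of the 10 passed limma with Benjamini-Hochberg adjustment over all genes (adjusted p = 0.9998 for each), and 0 had an unadjusted p under 0.05, compared with 87 of 12251 genes. The shares called among all genes were 0.0408% higher and 0.00816% lower in M. Side by side, YFP+ M was 4.34 to 33.4 times YFP+ FM, and YFP- M was 0.856 to 2.43 times YFP- FM over the 10 genes. Whether the gap between M and FM differed between YFP+ and YFP- cells was not tested, since no replicate remains for it.

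Rescaling kept the direction of every transporter and made its size smaller. The median log2 difference of the 10 was -4.50 on the deposited values, against -1.73 for all tested genes. It was -2.75 after quantile normalization, -2.75 after median-ratio scaling and -2.51 after cyclic loess, where all genes had a median near 0. The numbers past the threshold were then 6, 10 and 2 of 10, beside 1.67%, 6.45% and 0.327% of all tested genes called lower and 1.21%, 6.2% and 0.531% called higher. Slc22a8 and Slc38a3 were past it under all 3 scalings. Nothing is read from these counts, since the genes were chosen with this contrast known. On the deposited values the median difference of the 10 ran from -5.45 to -3.58 with a library left out. All 10 differences stayed below 0 there, which was fixed because the groups did not overlap.

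Several of the carriers work with a partner subunit, and these did not all follow them. Slc3a2, the heavy chain that brings Slc7a5 to the membrane, had 407.5 TPM in YFP+ M and 354.5 in YFP+ FM, against 197.4 in YFP- M and 406.3 in YFP- FM. Its groups overlapped, and it did not pass the test (log2 difference 0.42, SE 0.84, limma adjusted p = 0.664), although it was called higher after median-ratio scaling (2.69, adjusted p = 0.0449). Bsg, basigin, the chaperone of Slc16a1, had 405.6 and 139.5 TPM in YFP+ libraries against 3321 and 1333 TPM in YFP- libraries, and fell (-3.14, SE 0.76, adjusted p = 0.000793). Its difference was -3.24 after quantile normalization (limma adjusted p = 0.0398), -0.87 after median-ratio scaling (adjusted p = 0.588) and -3.34 after loess (adjusted p = 0.0661). Emb, embigin, another monocarboxylate carrier partner, had 8.15 and 3.50 TPM in YFP+ libraries against 52.8 and 53.0 TPM in YFP- libraries, and fell (-3.07, SE 1.11, adjusted p = 0.0221), without a call under any of the 3 rescalings.

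Relatives of the transporters in the same carrier families were listed in 70 names, of which 39 were tested. Of these 0 rose and 19 fell by limma, beside 0.522% and 39.5% of all genes, and the list's median was -2.22. Slc38a5, another glutamine carrier, had 3.92 and 0.481 TPM in YFP+ libraries against 83.4 and 44.3 TPM in YFP- libraries (-4.52, adjusted p = 0.00118). Slco2b1 (-4.30, adjusted p = 0.000934) and Slco4a1 (-4.06, adjusted p = 0.00342), organic anion carriers, also fell. All 3 were called lower after median-ratio scaling, and none of them after quantile normalization or loess. Of the 39, quantile normalization called 1 higher and 1 lower, while median-ratio scaling called 3 higher and 9 lower. Of the 39, 6 reached 1 TPM in YFP- libraries alone. The count was 30 when YFP+ M was left out, 8 when YFP+ FM was, 7 when YFP- M was and 3 when YFP- FM was.

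Other transport genes of brain endothelium numbered 33, of which 32 had a name in the tables and 31 were tested. Of these 0 rose and 19 fell by limma, beside 0.522% and 39.5% of all genes, with a median of -2.39, and 6 of the 31 reached 1 TPM in YFP- libraries alone. Slc2a1, the glucose carrier GLUT1 of brain endothelium, had 48.7 and 16.3 TPM in YFP+ libraries against 580.2 and 692.7 TPM in YFP- libraries. It fell by limma (-4.43, SE 0.92, adjusted p = 0.00019). It was called under all 3 rescalings. The scaffold gene Slc9a3r2 (-4.05, adjusted p = 0.00115), the thiamine carrier Slc19a3 (-3.85, adjusted p = 0.00237) and the zinc carrier Slc39a10 (-3.60, adjusted p = 0.00811) also fell. Quantile normalization called 2 of this list, both lower, and median-ratio scaling called 3 higher and 10 lower. Leaving out YFP+ FM gave 9 calls, and leaving out either YFP- library gave 6.

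Barrier regulators, the Wnt pathway and transcription factor genes that set up the barrier in brain endothelium, numbered 25 with 20 tested. Of these 0 rose and 17 fell by limma, beside 0.522% and 39.5% of all genes, with a median of -2.83, but 13 of the 20 reached 1 TPM in YFP- libraries alone and so had to differ. Foxf2, a transcription factor of brain pericytes and endothelium, had 1.10 and 0.104 TPM in YFP+ libraries against 23.5 and 17.2 TPM in YFP- libraries (-3.79, adjusted p = 0.00175). Tnfrsf19, a receptor that is a Wnt target, had 0.779 TPM in YFP+ M and was listed at 0 in YFP+ FM, against 20.0 and 14.4 TPM in YFP- libraries. Notum, an inhibitor of Wnt proteins, had 0.305 and 0.106 TPM in YFP+ libraries against 12.7 and 10.9 TPM in YFP- libraries. For Tnfrsf19 and Notum no test is given, since they passed the filter on low values through YFP- libraries alone. Ctnnb1, beta-catenin, which most cell types express, also fell (-3.59, adjusted p = 0.00135), without a call under any of the 3 rescalings. Its difference was -1.34 after median-ratio scaling. The ligand genes Wnt7a, Wnt7b and Ndp were listed at 0 in both YFP+ libraries and were under 1 TPM in both YFP- libraries. Quantile normalization called 2 of the 20 lower, median-ratio scaling 13 lower and 1 higher, and loess 0, and the count was 9 without YFP- FM.

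**Figure D3:**
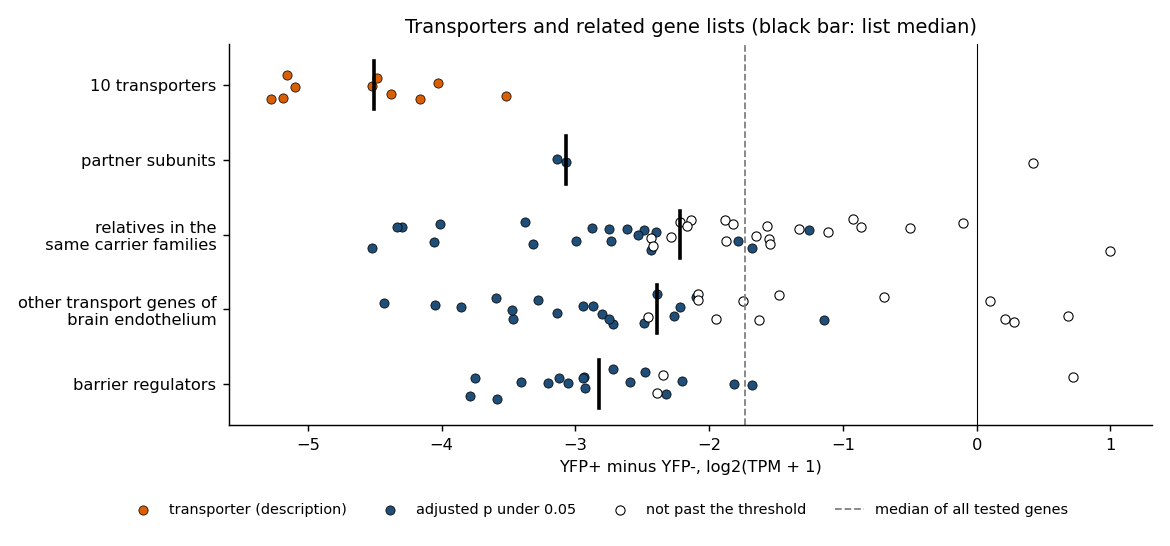
YFP+ minus YFP- differences in log2(TPM + 1), 1 point per tested gene, for the 10 transporters (orange, description) and 4 related lists (filled blue where limma's adjusted p was under 0.05, open otherwise). Black bars are list medians, from -4.50 for the transporters to -2.22 for the carrier family relatives, and the dashed line marks -1.73, the median of all tested genes.

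Markers of several cell types that do not belong to the sort varied along with the transporters, and their part in the transporter levels was not tested. The marker counts below stand beside 39.5% of all tested genes called lower and 79.7% lower without overlap. Of 15 brain endothelial genes that are not transporters 0 rose and 13 fell by limma, and 14 had both YFP+ libraries below both YFP- libraries. The 13 calls were 6 after quantile normalization, 11 after median-ratio scaling and 3 after loess, and 4 of the 15 reached 1 TPM in YFP- libraries alone. Cldn5, the main tight junction claudin, had 19.1 and 4.36 TPM in YFP+ libraries against 434.8 and 372.0 TPM in YFP- libraries, and Ocln, occludin, had 1.56 and 0.123 against 26.1 and 18.1 TPM. Cldn5 in YFP+ M was thus 4.39% of its YFP- M level, within the range of the transporters. The summed level of this list was 2353 and 2057 TPM in YFP+ libraries against 4192 and 2966 TPM in YFP- libraries. Most of the YFP+ sums was Pltp, a phospholipid transfer protein that macrophages also make, at 1933 and 1807 TPM. In YFP- M Pltp had 921.4 TPM, below Ly6c1 at 1147 and Ly6a at 963.5 TPM, and in YFP- FM it had 1273 TPM. Pltp and Ly6a did not pass the test (limma adjusted p = 0.332 and 0.206). Foxq1 and Apcdd1 of this list were listed at 0 in YFP+ FM.

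Of 14 pan-endothelial genes 13 were tested and 12 fell, compared with 5 after quantile normalization, 8 after median-ratio scaling and 0 after loess, with sums of 230.7 and 114.0 TPM in YFP+ libraries against 1218 and 1373 TPM in YFP- libraries, and Erg was listed at 0 in both YFP+ libraries. The member that did not pass was Cdh5, VE-cadherin, which Kupffer cells also make, at 121.6 and 62.3 TPM in YFP+ libraries against 56.4 and 144.4 TPM in YFP- libraries. It was called higher after median-ratio scaling (limma adjusted p = 0.0309). Genes of liver sinusoidal endothelium, the endothelium present in liver, gave 5 of 14 that fell and 9 of 14 lower without overlap, shares no higher than those of all tested genes, with a median of -1.68 that was 0.06 after quantile normalization, 0.07 after median-ratio scaling and -0.02 after loess. Their sums were 363.5 and 216.9 TPM in YFP+ libraries against 941.2 and 1187 TPM in YFP- libraries. No member of that list was at 0 in any library. Whether the lists differ from each other was not tested.

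Summed choroid plexus genes stood at 65.4 and 53.2 TPM in YFP+ libraries against 1257 and 1026 TPM in YFP- libraries, with 11 of 11 tested members lower by limma. Of these 11, however, 8 reached 1 TPM in YFP- libraries alone and so had to differ, and 2 were called after quantile normalization, 6 after median-ratio scaling and 2 after loess. Most of that sum was Ttr, transthyretin, which hepatocytes also make, and 8 of the 12 members, among them Kl, Otx2 and Kcnj13, were listed at 0 in YFP+ FM. Hepatocyte genes summed to 2164 and 1787 TPM in YFP+ libraries against 2817 and 6332 TPM in YFP- libraries, and of 13 tested 1 fell, which was Ttr. The median hepatocyte difference was -0.81, but 0.82 after quantile normalization, 1.41 after median-ratio scaling and 1.01 after loess. Quantile normalization and loess each called 0 hepatocyte genes higher and 1 lower, while median-ratio scaling called 3 higher and 0 lower. Much of the hepatocyte sum was Trf, transferrin, at 1807 and 1055 TPM in YFP+ libraries against 1399 and 4190 TPM in YFP- libraries. The 5 transporters that hepatocytes also make had a YFP+ sum of 5.76% of the YFP- sum in M and 0.968% in FM. The microglia genes had 5.87% in M and 0.625% in FM, with 11 of 11 lower by limma (11 after quantile normalization, 9 after median-ratio scaling and 4 after loess) and none at 0. Pericyte sums were 15.0 and 16.8 TPM in YFP+ libraries against 77.8 and 121.8 TPM in YFP- libraries, with 7 of 8 tested members lower, 6 of the 8 at 1 TPM in YFP- libraries alone, 0 called lower after quantile normalization, 3 after median-ratio scaling and 0 after loess, and Rgs5, Abcc9, Cspg4, Higd1b and Ndufa4l2 at 0 in YFP+ FM.

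Astrocyte, oligodendrocyte and neuron genes were also lower in YFP+ libraries by their sums. Astrocyte sums were 45.9 and 9.99 TPM in YFP+ libraries against 237.8 and 232.8 TPM in YFP- libraries, and 5 of 10 genes were listed at 0 in YFP+ FM, including Aqp4 and Gfap. Of 9 tested astrocyte genes 7 were lower by limma, 4 of the 9 reached 1 TPM in YFP- libraries alone, and 2 were called after quantile normalization, 5 after median-ratio scaling and 0 after loess. Oligodendrocyte sums were 105.5 and 27.1 TPM against 740.0 and 846.4 TPM in the same order, with 3 of 5 lower, 2 of the 5 at 1 TPM in YFP- libraries alone, 3 called after quantile normalization and 1 after loess, and Mog at 0 in every library but YFP- M. Neuron sums were 11.7 and 3.80 TPM against 24.3 and 22.2 TPM, and Syt1 and Gad2 were at 0 in both YFP+ libraries. Of 4 tested neuron genes 2 were lower, and those 2 reached 1 TPM in YFP- libraries alone. The neuron median of -1.54 was 0.20 after quantile normalization, -0.16 after median-ratio scaling and 0.36 after loess. Quantile normalization and loess each called 1 neuron gene higher and 0 lower, and median-ratio scaling called 1 higher and 2 lower.

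**Figure D4:**
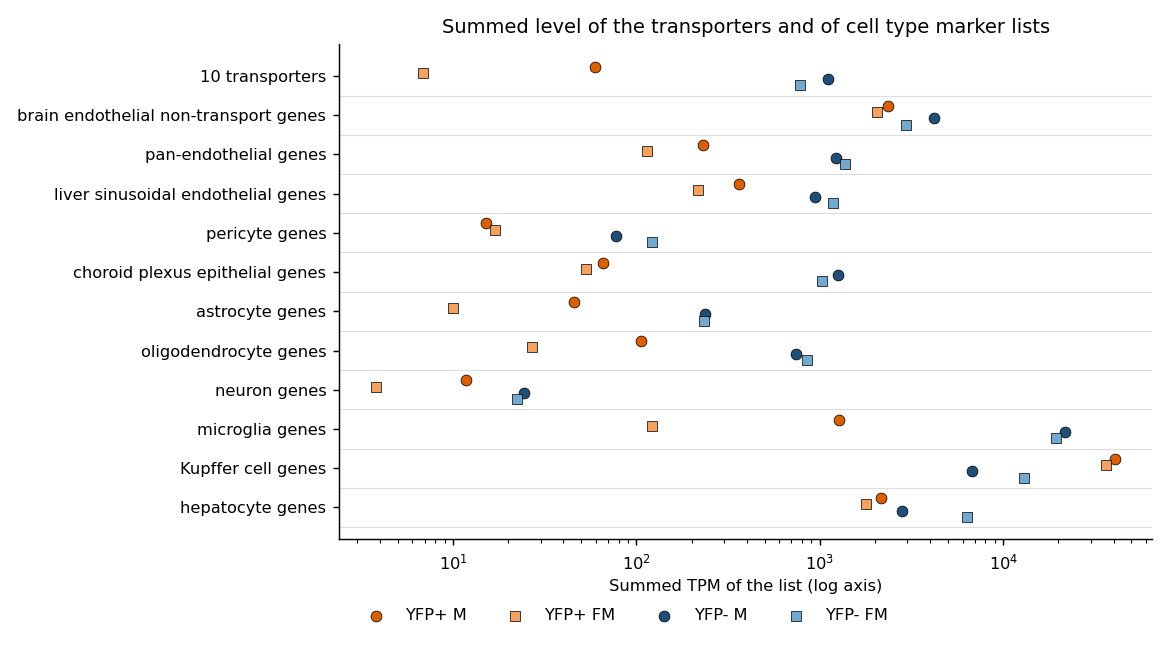
Summed TPM (log axis) of the 10 transporters and of 11 marker lists in each library, YFP+ in orange and YFP- in blue, with circles for M and squares for FM titles. YFP+ points lie left of YFP- points for the transporters (59.1 and 6.85 against 1112 and 781.1 TPM) and for every marker list but the Kupffer cell genes.

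Genes with a pattern most like the transporters were ranked by the Euclidean distance of their log2(TPM + 1) values, centred on each gene's mean over the 4 libraries, to the mean profile of the 10. Over 8283 genes with a mean of at least 5 TPM, the 5 nearest were Sgce (0.16), Tgfbr1 (0.17), Podxl (0.20), Esam (0.20) and Upk1b (0.24), compared with a median distance of 2.91. The transporters themselves lay at 0.19 to 1.33. With 4 libraries such likeness is a description of these samples.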

How the data were processed

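RNA of 4 libraries of sorted liver macrophages, 2 YFP+ and 2 YFP-, was analysed from 1 gene table per library. Per the file headers, the authors deposited mean read coverage (a signal per base), FPKM and TPM for each gene. The submitters' processing notes name HISAT, GRCm38 and mm10, while the program behind the tables was not given in the sources used here. Coverage at 1 FPKM was 4.81 in YFP+ M, 2.60 in YFP+ FM, 9.19 in YFP- M and 2.59 in YFP- FM. Depth in reads is unknown, so no counting interval is given, and a value of 0 can be a failed estimate.

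Rows of 1 name were summed (166 of 23337 names, none a transporter). The tests took the 12251 genes that reached 1 TPM in 2 or more libraries. R 4.3.3 and limma 3.58.1 were applied to log2(TPM + 1), using empirical Bayes moderation with a trend, Benjamini-Hochberg adjustment at 0.05 and YFP group as the sole factor. M and FM titles were compared with YFP group as covariate. The code was tested on simulated data. In both models limma set infinite prior degrees of freedom, so each p rests on the variance trend over all genes.

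Members and lists were chosen with earlier results of these data known. Named list genes are up to 4 per direction with the largest difference among called genes whose higher group averaged 5 TPM or more, plus all partner subunits, and 1 such gene is not reported here. Alternatives were another pseudocount and filters, 3 rescalings, FPKM, the title start as a block and each library left out. Python 3.11.15, pandas 2.3.3, NumPy 2.4.6 and matplotlib 3.10.9 were used.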

Additional observations from a re-analysis of the deposited data

Results flagged for a closer look

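Among the transporters, the named list genes and the marker lists, 12 genes had a YFP+ minus YFP- difference in log2(TPM + 1) that pointed in opposite directions in the M and FM libraries. It was 1.04 in M and -0.20 in FM for Slc3a2, the partner of Slc7a5, and 1.10 and -1.20 in the same order for Cdh5. Among liver sinusoidal genes it was 1.91 and -1.98 for Stab2, 0.61 and -2.10 for Gpr182, and 1.10 and -1.44 for Aqp1. Among hepatocyte genes it was -1.69 and 0.71 for Apoa2, 0.37 and -1.99 for Trf, 0.042 and -1.39 for Cps1, and 0.57 and -1.16 for Asgr1. It was 1.04 and -1.43 for the Kupffer cell gene Slc40a1, 0.58 and -2.36 for the astrocyte gene Aldh1l1, and 0.68 and -1.77 for the neuron gene Syn1. With 1 library per group and title start these differences could not be tested. None of the 10 transporters showed opposite directions.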

How the results depend on the processing

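All 120 alternative values of the 10 transporter differences (12 settings) stayed below 0, from -6.66 to -1.33. Of these, 33 moved by more than the spread between libraries, 30 of them under rescaling. Much of this was fixed beforehand, since the filters and the block leave a difference unchanged. As the groups did not overlap, another pseudocount or a left-out library could not change a sign either. Only FPKM and the 3 rescalings could have done so. The median of the 10 transporter differences was -2.75 under quantile normalization, -2.75 under median-ratio scaling and -2.51 under cyclic loess. It was -5.45 to -3.58 with a library left out. The 4898 genes called for YFP became 3129 with a pseudocount of 0.1, 169 without a filter, 2959 with a filter at 5 TPM, 353 under quantile normalization, 1549 under median-ratio scaling, 105 under loess, 1749 with the title start as a block and 879 to 8318 with a library left out. The 6 genes called for M against FM became 0 without a filter, 1 at 5 TPM, 119 under quantile normalization, 57 under median-ratio scaling, 12 under loess and 24 with FPKM. Leaving out a library there leaves no residual degrees of freedom, so it gave no test. The 19 carrier family relatives, all lower, became 1 without a filter and 9 with the block, again all lower. They became 2 under quantile normalization (1 of them higher) and 12 under median-ratio scaling (3 of them higher). Under loess 1 relative was called, and it was higher. The 19 other transport genes became 0 without a filter, 2 under quantile normalization, 1 under loess, 8 with the block and 6 to 25 with a library left out. The 17 barrier regulators became 2 without a filter, 2 under quantile normalization, 0 under loess and 9 to 19 with a library left out. Where a library is left out, the lone library of a group is assumed to vary like the others. The cause of these changes was not tested. Deviations of same-start libraries from their group means were not correlated across genes (-0.01). With 2 libraries per group this cannot show whether libraries of the same start share animals. The starts are not known to pair libraries, and values given within M or FM only set them side by side. With the start as a block 8 of 10 transporters were past the threshold, and without a filter 0 were, and nothing is read from either count. Values at low coverage, such as Abcb1a in YFP+ FM, limit the precision.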
